A study of Mus musculus with 16 samples.

Results

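Imprinted genes were described across the 8 deposited lists of open chromatin peaks. The 40 genes were chosen by name, as genes known to be imprinted in the mouse. No value of these lists was used as a criterion, but earlier results of these data were known. All 40 were found among the 49943 genes of the RefSeq table used here on chromosomes 1 to 19, X and Y. They comprise 36 of its 21887 protein-coding genes and 4 long non-coding RNA genes, namely H19, Airn, Kcnq1ot1 and Meg3. They were grouped by imprinted cluster, with 9 clusters of more than 1 gene and 8 single loci. A gene end counted as covered when a peak lay within 1 kb of either end of the gene, and peaks were also counted within 20 kb of the gene span.

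The study followed mouse fibroblasts through chemical reprogramming with ATAC-seq, in which the Tn5 transposase cuts accessible DNA. There are 16 samples, 2 for each of 8 stages, and 1 peak list per stage was used here. Day 0 is untreated mouse embryonic fibroblasts (MEF) of passages 1 to 3 in serum medium. Days 2, 4, 6, 8, 10 and 12 are the same cells in reprogramming medium, and the sources used here do not say what it holds. The iPSC are the resulting induced pluripotent stem cells, grown on feeder cells with LIF, CHIR99021 (a GSK3 inhibitor) and PD0325901 (a MEK inhibitor). All samples share the strain label 129XOG2 and come from E13.5 embryos. OG2 mice carry a GFP transgene driven by Pou5f1 sequences. The sources used here do not say how many feeder cells were among the iPSC.

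In the tissues where a gene is imprinted, it is expressed mainly from the copy inherited from 1 parent, and the other copy is silent or nearly so. The difference is set by DNA regions that are methylated in the egg or in the sperm and keep that mark in the embryo. Such a region often holds a promoter, so that the promoter is methylated on 1 parental chromosome and active on the other. In several clusters the active copy makes a long non-coding RNA that silences its neighbours, as Airn does at Igf2r and Kcnq1ot1 at Kcnq1. At Igf2-H19, CTCF binds the unmethylated maternal control region and insulates Igf2 from enhancers. Imprints can be lost when cells are reprogrammed, and the Meg3 locus is a known example in mouse iPSC. The lists carry no allele information, so a peak can come from either parental chromosome or from both. They also do not show which of the 40 genes are imprinted in these cells.

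Of the 40 genes, 30 had an annotated start in the RefSeq promoter table of GRCm38.p6, with 46 starts in all. The 250 bases before 5 starts are shown because the cluster results turn on them. They belong to Kcnq1ot1 (chr7:143296548-143296797, minus strand) and Airn (chr17:12741061-12741310, plus strand), which were open in nearly every list. They also belong to Plagl1 (chr10:13090582-13090831, plus strand) and the internal start of Mest (chr6:30737800-30738049, plus strand), which lie in germline-methylated regions. Kcnq1ot1 and Airn were likewise taken to have a promoter in or at such a region. The start of Meg3 (chr12:109540746-109540995, plus strand) was covered in early lists alone. Each is written 5′ to 3′ as transcribed, from RefSeq, and capitals mark CG dinucleotides, the sites that can carry DNA methylation.
Kcnq1ot1: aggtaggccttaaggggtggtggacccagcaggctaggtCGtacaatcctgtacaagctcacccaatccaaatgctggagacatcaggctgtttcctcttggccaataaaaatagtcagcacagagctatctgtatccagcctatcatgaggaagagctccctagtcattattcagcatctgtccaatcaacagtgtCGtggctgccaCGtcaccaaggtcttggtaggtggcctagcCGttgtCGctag
Airn: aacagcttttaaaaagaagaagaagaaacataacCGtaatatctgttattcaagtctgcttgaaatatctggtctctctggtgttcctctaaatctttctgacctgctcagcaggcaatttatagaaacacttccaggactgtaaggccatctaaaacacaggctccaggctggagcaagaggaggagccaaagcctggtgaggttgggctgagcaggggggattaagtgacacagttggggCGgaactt
Plagl1: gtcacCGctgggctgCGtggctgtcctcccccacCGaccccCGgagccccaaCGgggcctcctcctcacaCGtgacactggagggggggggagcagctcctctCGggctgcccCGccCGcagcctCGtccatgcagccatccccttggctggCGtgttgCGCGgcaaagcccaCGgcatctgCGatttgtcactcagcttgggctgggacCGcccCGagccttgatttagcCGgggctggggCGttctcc
Mest: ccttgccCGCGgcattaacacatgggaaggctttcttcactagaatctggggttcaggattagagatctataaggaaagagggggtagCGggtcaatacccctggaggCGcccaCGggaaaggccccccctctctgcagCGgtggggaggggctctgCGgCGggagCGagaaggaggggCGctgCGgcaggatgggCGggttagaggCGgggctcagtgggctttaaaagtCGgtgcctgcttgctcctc
Meg3: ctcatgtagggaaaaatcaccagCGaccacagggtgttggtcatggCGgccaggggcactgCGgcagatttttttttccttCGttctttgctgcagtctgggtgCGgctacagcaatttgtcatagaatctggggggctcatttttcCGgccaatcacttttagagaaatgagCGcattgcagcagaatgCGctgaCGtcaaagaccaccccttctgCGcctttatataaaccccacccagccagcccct

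The 250 bases before these 5 starts differ widely in the sites that methylation can mark. Bases after the starts were not counted, so a low count does not describe the whole methylated region. The Airn window holds 2 CG dinucleotides and the Kcnq1ot1 window 5, against 10 at Meg3, 14 at Mest and 19 at Plagl1. Over the 46 starts the median was 10, with a range of 0 to 40, and it was also 10 over 21263 starts of protein-coding genes. Grb10 had the richest window, with 40 CG dinucleotides. Among the genes' starts, the 15 covered within 1 kb in 7 or 8 lists had a median of 14 CG dinucleotides, and the 21 covered in 1 to 6 lists had 12. The 10 starts covered in no list had 5. Over all protein-coding starts the same classes had medians of 17, 8 and 2, so CG content and coverage moved together in general. The motif TGCCGC, which the imprint-protecting factor ZFP57 binds when methylated, was searched on both strands. It contains a CG, so it is more likely in CG-rich windows. It lay in 7 of the 46 windows (15.2%), against 10.2% of protein-coding starts and 8.68% of all starts. Those windows belong to Plagl1, Meg3, Copg2, Zim1 and Slc22a2, with 1 match each, and to a pair of internal Mest starts that share most of their sequence, with 2 matches each. A match says only that the letters are present.

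The 8 lists differed in depth, which bears on every count below. They held between 31915 peaks at day 12 and 83022 at day 2. The background pileup, the lowest local background in a list, grows with sequencing depth and ran from 0.248 at day 12 and 0.682 at day 8 to 3.08 at day 2. Day 0 and iPSC were close, at 1.96 and 1.90. Median peak width ran from 264 bp at day 12 to 705 bp at day 2. Counts are therefore also given at day 8 depth, where pileups of each deeper list were scaled to the background of day 8 and each peak was kept if it still met the list's lowest significance. This scales the background and does not equalise the lists: the shallower day 12 list was left as deposited, and 31865 to 59478 peaks were kept per list. Lists per replicate were not used here, so there is no replicate error, no test and no p-value, and every difference is between single lists. In a bulk sample, fewer cells with an open site and a less open site per cell cannot be told apart. Fold values are the authors' own, the summit pileup over the local background, and are given to describe each peak within its list.

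Markers of the labelled cells differed between the lists, and not in a steady course. In list order, ends were covered at 9, 10, 10, 10, 6, 6, 2 and 7 of 10 fibroblast markers. Of 10 pluripotency markers, 2, 4, 2, 4, 6, 7, 5 and 8 were covered. At day 8 depth these were 9, 10, 10, 8, 6, 6, 2 and 5 fibroblast and 0, 3, 1, 2, 6, 6, 5 and 8 pluripotency markers. The lowest fibroblast count fell in the shallowest list, day 12. Of 7 epithelial markers, 1, 4, 0, 2, 5, 6, 4 and 6 were covered. Endoderm markers (4 genes) ranged from 1 to 4, trophoblast markers (4 genes) from 0 to 4, with 4 in iPSC, blood markers (4 genes) from 1 to 2 and endothelial markers (3 genes) from 1 to 2. At day 0, 6 of 7 spermatid genes had a covered end, and 0 did in any other list. The part of these other cell types in the day 0 results below was not tested.

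No list covered the ends of all imprinted genes, and their shares lay on either side of the shares of all protein-coding genes. Taking the lists in order from day 0 to iPSC, an end was covered at 19, 29, 20, 22, 18, 19, 14 and 25 of the 40 genes. The shares of all protein-coding genes in the same lists were 55.0%, 62.2%, 51.6%, 54.5%, 55.2%, 56.4%, 44.3% and 58.6%. The imprinted genes were highest in the deepest list, day 2 (72.5%), and lowest in the shallowest, day 12 (35.0%). The high count of day 2 went with its depth: at day 8 depth the counts in list order were 17, 19, 17, 15, 18, 19, 14 and 22. The shares of all protein-coding genes at that depth were 49.3%, 56.9%, 48.6%, 46.7%, 55.2%, 55.6%, 44.3% and 53.4% in the same order. After this scaling the share of imprinted genes was below that of all protein-coding genes in every list but iPSC. There the shares were close, with 22 of the 40 genes against 53.4%.

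**Figure D1:**
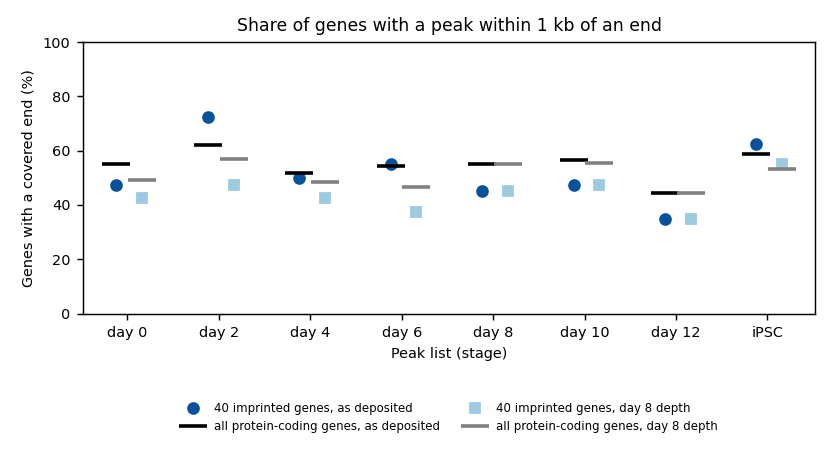
Share of genes with a peak within 1 kb of either end (y axis, percent) in each of the 8 peak lists (x axis), for the 40 imprinted genes (circles as deposited, squares at day 8 depth) and for all protein-coding genes (dashes, black as deposited and grey at day 8 depth). The imprinted genes run from 35.0% at day 12 to 72.5% at day 2 as deposited. At day 8 depth the iPSC list alone has them above all genes, by a small margin.

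Many imprinted genes start inside the span that the RefSeq table gives, so gene ends alone miss some promoters. With annotated starts added, 24, 32, 24, 28, 23, 25, 18 and 29 of the 40 genes were covered in list order. The shares of protein-coding genes counted the same way were 58.4%, 65.3%, 55.3%, 57.9%, 58.9%, 60.0%, 47.7% and 62.0%. The imprinted genes lay above them in the first 4 lists, at day 10 (62.5%) and in iPSC (72.5%). At days 8 and 12 they lay below, with 57.5% and 45.0%. These shares are as deposited and were not taken at day 8 depth, and the background pileup was lowest at days 8, 10 and 12. The 40 genes also include 4 long non-coding RNA genes, which the protein-coding shares leave out. In 7 or 8 of the lists, 17 of the 40 genes were covered (42.5%), against 49.6% of protein-coding genes. The genes that gained a list this way were Mest, Snrpn, Commd1, Gnas, Igf2, Asb4 and Slc22a18. The Slc22a18 start is not internal but close to a gene end, and the day 10 peak lay 1014 bp from that end.

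**Figure D2:**
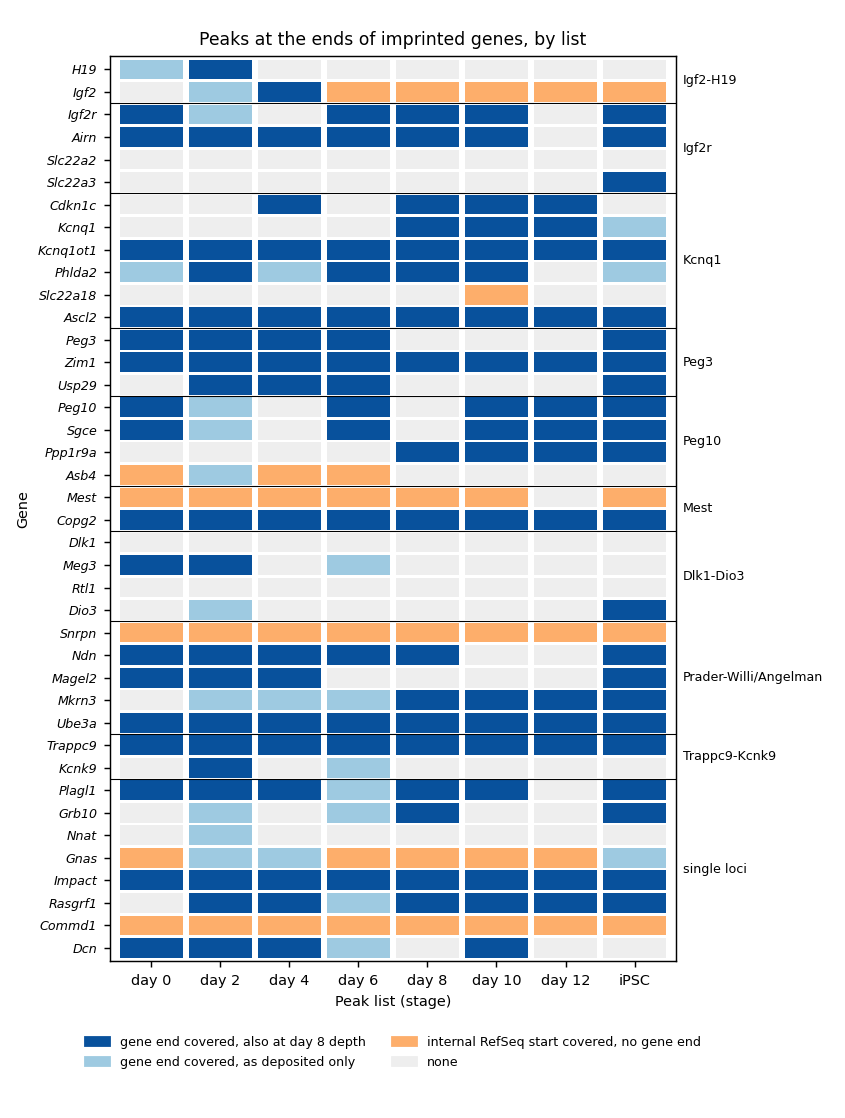
Coverage of each imprinted gene (rows, by cluster) in each peak list (columns). Dark blue marks a gene end covered also at day 8 depth, and light blue a gene end covered as deposited alone. Orange marks a RefSeq start covered with no gene end, internal but for Slc22a18, and grey none. Kcnq1ot1, Ascl2, Zim1, Copg2, Ube3a, Impact and Trappc9 are dark in all 8 lists, and Snrpn and Commd1 are orange in all 8.

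Few imprinted genes were open at their ends throughout. An end was covered in all 8 lists for 7 genes (17.5%, against 36.9% of protein-coding genes) and in no list for 7 genes (17.5%, against 29.7%). The former are Kcnq1ot1, Ascl2, Zim1, Copg2, Ube3a, Impact and Trappc9. The latter are Slc22a2, Slc22a18, Mest, Dlk1, Rtl1, Snrpn and Commd1. The window mattered for both. Within 2.5 kb of an end, 14 genes were covered in all lists (35.0%, against 41.5%) and 2 in none (5.00%, against 23.5%). The genes added to the first class were Peg3, Usp29, Peg10, Sgce, Meg3, Rasgrf1 and Commd1.

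Of the end points, iPSC alone covered more of these genes than day 0 alone. Day 0 and not iPSC covered 3, H19, Meg3 and Dcn (7.50%, against 5.02% of protein-coding genes). The reverse held for 9, Slc22a3, Kcnq1, Usp29, Ppp1r9a, Dio3, Mkrn3, Grb10, Gnas and Rasgrf1 (22.5%, against 8.67%). At day 8 depth these were 2 (Meg3 and Dcn, against 5.30%) and 7 (17.5%, against 9.45%), with Kcnq1 and Gnas no longer among them. Within 2.5 kb the reverse class had 5 genes (12.5%, against 8.77%), Slc22a3, Kcnq1, Ppp1r9a, Dio3 and Mkrn3.

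Over time, 11 genes had an end covered in at least 1 list of days 2 to 6 but no list of days 8 to 12 (27.5%, against 6.92% of protein-coding genes). They are H19, Igf2, Peg3, Usp29, Asb4, Meg3, Dio3, Magel2, Nnat, Gnas and Kcnk9. Of the 11, Peg3, Usp29, Dio3, Magel2 and Gnas were covered in iPSC too. The count of 11 fell to 7 at day 8 depth (17.5%, against 4.64%) and was 7 without the day 2 list. At day 12 depth it was 2, Peg3 and Usp29 (5.00%, against 2.63%). The same peaks covered the ends of both genes at days 2, 4 and 6, so these genes are not separate observations. Background pileups at days 8, 10 and 12 were the lowest (0.682, 0.968 and 0.248), against 1.90 in iPSC. Peaks were narrower at days 8 to 12, and for some of the 11 genes the nearest peak lay just outside the window. At Peg3 it lay 1435, 1466 and 1468 bp from an end at days 8, 10 and 12, and at Meg3 1947, 1742 and 1957 bp. At Dio3 it lay 71144, 88855 and 42147 bp away, and at Magel2 10506, 10197 and 37755 bp. Within 2.5 kb of an end 8 genes had the pattern (against 6.60%), of which Igf2, Asb4, Dio3, Magel2 and Kcnk9 were among the 11. The opposite, an end covered in a list of days 8 to 12 but no list of days 0 to 6, held for Kcnq1 and Ppp1r9a (5.00%, against 3.55%). This late class also depended on depth, in the other direction. At day 8 depth it held 4 genes, with Mkrn3 and Grb10 added (against 5.83%). At day 12 depth it held 10 genes (against 12.7%), more than the 2 of the early class at that depth.

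The Igf2-H19 cluster on chromosome 7 pairs a fetal growth factor with a maternally expressed non-coding RNA. H19 (chr7:142575530-142578146) had a covered end at days 0 and 2 alone, and those peaks lay at opposite ends. At day 0 the peak lay 358 bp beyond the low-coordinate end (fold 3.13). At day 2 it lay 78 bp from the high-coordinate end, where H19 transcription starts (fold 3.54). Neither ranked high: the day 0 peak was within the best-scored 81.5% of its list and the day 2 peak within the best 60.5%. At day 8 depth the day 2 peak alone was kept. The region upstream of the H19 start, chr7:142580243-142582065, was covered in 6 lists, all but days 4 and 12. Its folds in those 6, in list order, were 2.79, 3.73, 3.53, 4.18, 4.56 and 5.39. The CTCF-bound control region of the cluster is known to lie upstream of H19, and its limits are not in the tables used here. Igf2 (chr7:142650768-142666816) had an end covered at days 2 and 4, and no peak lay within 20 kb of the gene at day 0. Its annotated internal starts lie by chr7:142658799-142659867, covered at days 2, 4, 6, 8 and 12, and chr7:142660120-142660837, covered in 4 lists (days 2, 8 and 10, iPSC). Together the cluster had 2, 6, 4, 4, 5, 4, 1 and 2 peaks from day 0 to iPSC. At day 8 depth days 0 and 6 had 0, against 5 at day 8.

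The Igf2r cluster on chromosome 17 held fewer peaks in the day 12 and iPSC lists than in the others. Igf2r encodes the receptor that clears IGF2, Airn is the paternal RNA that starts in an Igf2r intron and silences its neighbours, and Slc22a2 and Slc22a3 encode organic cation transporters. Within 20 kb of these 4 genes lay 19, 26, 13, 22, 11, 14, 6 and 7 peaks in list order. Scaled to day 8 depth they were 12, 17, 8, 10, 11, 13, 6 and 4, with days 8 and 10 above days 4 and 6. Of the cluster's 54 regions, 16 were in the day 0 list but not the iPSC list and 5 the reverse, where the shares over all regions near protein-coding genes were 18.9% and 19.6%. Both promoters of the silencing pair were covered in iPSC. The Airn start lay in a peak in 7 lists, all but day 12, with folds of 4.27, 5.76, 5.74, 4.36, 6.58 and 7.38 at days 0 to 10 and 5.52 in iPSC. In 6 of those the summit was within 54 bp of the start (positions count from the start, negative upstream), and at day 10 it lay at −893. The Igf2r start, with 27 CG dinucleotides in its window, was covered in 6 lists, all but days 4 and 12, with folds of 4.61, 3.01, 4.45, 4.39, 4.33 and 7.39.

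Sites inside the Airn span differed between early and late lists. The best-scored region of the cluster, chr17:12782626-12783678, was covered at days 0, 2, 4 and 6 with folds of 7.88, 9.94, 7.39 and 10.9, and in no later list. A neighbour, chr17:12790349-12791988, was covered from day 0 to day 10 (folds 5.20, 3.94, 4.27, 6.35, 7.65 and 8.26) and not at day 12 or in iPSC. Another, chr17:12809677-12810693, was covered at every day and not in iPSC. Inside Igf2r, chr17:12723999-12726096 was covered from day 0 to day 10. Slc22a2 had no covered end in any list, and Slc22a3 had 1 in iPSC alone (fold 4.82, 221 bp from the end).

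At the Kcnq1 cluster on chromosome 7 the start of the silencing RNA was open in every list. Kcnq1ot1 is the paternal antisense RNA that silences Cdkn1c, a cell cycle inhibitor, and its neighbours. Its start peak had folds of 6.65, 7.45, 8.84, 8.33, 8.52, 10.9, 7.12 and 10.2 from day 0 to iPSC. The summits lay between −104 and 10 from the start, so the printed Kcnq1ot1 window takes in 7 of the 8. The end was covered in all 8 lists at both scaled depths too. Kcnq1 encodes a potassium channel and changed at its end. The low-coordinate end (chr7:143106705-143107570) was covered in the last 4 lists, days 8 to 12 and iPSC, with folds of 5.67, 6.89, 4.03 and 4.18. At day 8 depth the iPSC list no longer covered it. In lists of days 0 to 6 the nearest peak lay 5955 to 12868 bp away. Inside the gene the reverse was seen at chr7:143180316-143181426, covered at days 0, 2, 4 and 6 (folds 4.75, 10.1, 6.19 and 3.79) and in no later list. A further site inside Kcnq1, chr7:143153902-143155443, was covered in every list but day 12 (folds 4.27 to 6.05).

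The other genes of this cluster followed separate courses. The high-coordinate end of Cdkn1c was covered at days 4, 8, 10 and 12 (folds 3.48, 6.67, 6.16 and 6.08) and at neither end point. Ascl2, a transcription factor gene of the trophoblast and of intestinal stem cells, had an end covered in all 8 lists, with folds between 4.11 and 6.80 at the end with the higher fold. Its high-coordinate end had 3.52 at day 8. Phlda2, a restrainer of placental growth, was covered in every list but day 12, and at day 8 depth in 4 lists. Slc22a18, a transporter gene, had no covered end, and its annotated start was within reach of a peak at day 10 alone. The cluster as a unit had 14, 25, 14, 17, 15, 14, 8 and 10 peaks. Scaled to day 8 depth these were 7, 13, 9, 6, 15, 13, 8 and 6, with day 8 the highest.

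**Figure D3:**
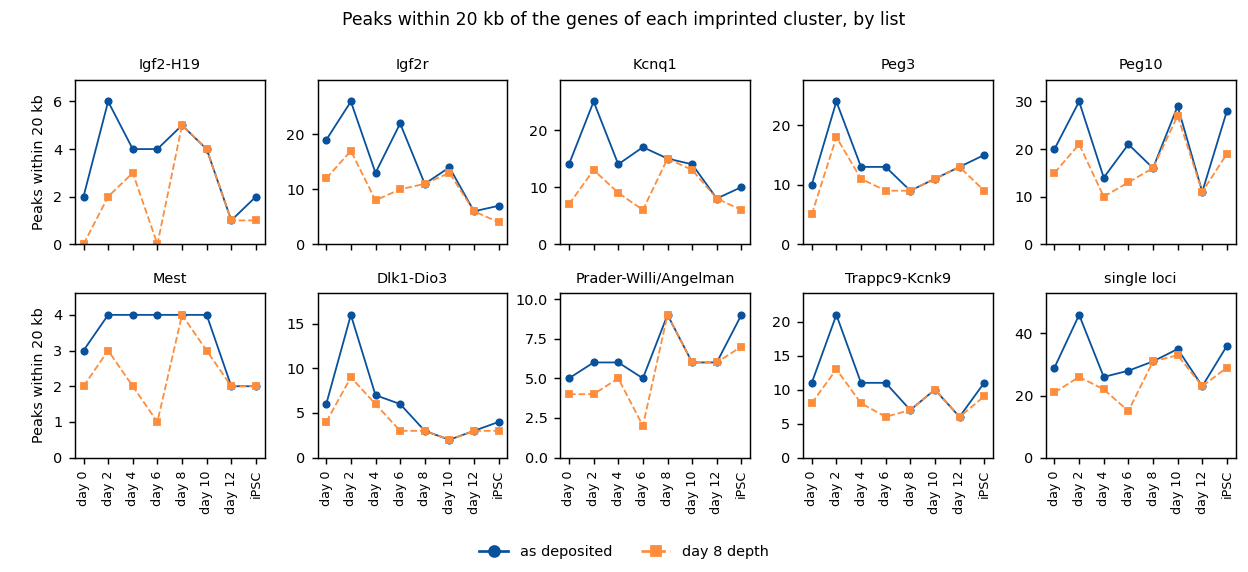
Number of peaks within 20 kb of the genes of each cluster (y axes, own scale per panel) in the 8 lists (x axes), as deposited (circles, solid lines) and at day 8 depth (squares, dashed lines). The Igf2r panel goes from 19 at day 0 to 7 in iPSC, while the Peg10 panel goes from 20 to 28 (15 and 19 at day 8 depth).

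The Peg3 cluster on chromosome 7 held a site that was open in all lists and is shared by Peg3 and Usp29. Peg3 encodes a zinc finger protein of growth and maternal behaviour, and Usp29 is transcribed in the opposite direction from the same germline-methylated promoter region. The shared region, chr7:6727312-6730563, had folds of 4.41, 4.49, 5.06, 4.95, 4.90, 3.81, 5.82 and 4.31. In each list its main summits lay between 1566 and 2832 bp inside Peg3, not at the start. A summit near the start itself, at −26, was seen in iPSC (fold 1.85). In iPSC the region was among the best-scored 1.60% of peaks, with a pileup of 201. The Peg3 end counted as uncovered at days 8 to 12, where the peaks were narrower, 1591 bp at day 8 and at most 710 bp at day 12, against 2055 bp at day 0. Zim1, a maternally expressed zinc finger gene next to Peg3, was covered at its start in all 8 lists (folds 7.72 to 13.3). Usp29 spans 236.7 kb and had 8, 20, 11, 10, 7, 10, 11 and 13 peaks within 20 kb. Per 100 kb this was 2.89 at day 0 and 4.70 in iPSC, against 6.01 and 4.51 at Peg3 and 3.22 in both lists at Zim1. A site inside Usp29, chr7:6940822-6941405, was covered in the last 4 lists (folds 9.79, 6.79, 4.81 and 4.96) and in none before. Another, chr7:6759852-6760732, was covered in iPSC alone (fold 10.2).

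In the Peg10 cluster on chromosome 6 several sites were covered in late lists alone. Peg10 is a retrotransposon-derived gene that the placenta needs, Sgce encodes epsilon-sarcoglycan, Ppp1r9a a neuronal actin-binding protein and Asb4 a ubiquitin ligase component. Of the cluster's 74 regions, 23 were in the iPSC list but not the day 0 list, and 14 the reverse, where the shares over all regions near protein-coding genes were 19.6% and 18.9%. At least 2 of days 8, 10, 12 and iPSC, and none of days 0 to 6, covered 14 of the 74, where that share was 7.46%. The region that Peg10 and Sgce share, chr6:4748005-4749453, was covered in all 8 lists (folds 3.90, 5.28, 5.59, 5.43, 7.08, 5.07, 6.62 and 4.96), and it came within 1 kb of their ends in 5. At day 2 the ends were covered by a separate peak (fold 3.31). Sites inside Sgce (chr6:4732533-4734097, folds 4.27 to 8.51) and Ppp1r9a (chr6:4923784-4924238, folds 4.73 to 11.8) were covered in all 8 lists too. Ppp1r9a was covered at its start in later lists alone. The region, chr6:4903503-4903834, was covered in the last 4 lists, with folds of 4.70, 5.86, 4.71 and 7.01. In days 0 to 6 the nearest peak was 9711 to 15108 bp away. Ppp1r9a spans 262.8 kb and had 20 peaks within 20 kb in iPSC and 18 at day 10. Per 100 kb the iPSC value was 6.61, below 7.81 at Gnas, 7.52 at Peg10, 7.42 at Plagl1 and 7.21 at Phlda2. Its strongest site, chr6:4958064-4958743, was covered at days 8, 10 and 12 alone (folds 8.57, 13.02 and 3.95). Asb4 went the other way: its internal start (chr6:5390149-5390815) was covered at days 0, 2, 4 and 6 (folds 5.00, 7.35, 5.51 and 6.10) and in no later list.

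At the Mest locus on chromosome 6 the promoter lies inside the annotated span. Mest encodes a hydrolase-like protein of mesoderm, and its paternal promoter is unmethylated. No Mest end was covered, whereas the internal start, whose sequence is printed above, was covered in 7 lists, all but day 12. The folds, the highest where several peaks lay there, were 3.37, 4.78, 5.26, 3.25, 6.60 and 4.50 at days 0 to 10 and 3.63 in iPSC. Summits fell into a pair of positions. In 5 lists, days 4 to 10 and iPSC, a summit lay within 52 bp of the start, and at days 0, 2, 8 and 10 a summit lay between −968 and −835. Copg2, a coat protein gene that overlaps the end of Mest, was covered at its own start in all 8 lists, with folds of 5.64 to 13.7.

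The Dlk1-Dio3 cluster on chromosome 12 differed between early and late lists at and around Meg3. Dlk1 encodes a Notch-related growth regulator, Rtl1 a retrotransposon-derived placental protein, Dio3 an enzyme that inactivates thyroid hormone and Meg3 a maternally expressed non-coding RNA. The Meg3 start was covered at days 0, 2 and 6, with folds of 3.64, 4.05 and 2.84 and summits at −4, −3 and −74. It was covered in no other list, and at day 8 depth at days 0 and 2. By contrast a site about 2 kb inside Meg3, chr12:109542356-109543635, was covered in all 8 lists, with folds of 5.83, 4.75, 4.76, 4.55, 7.12, 7.19, 6.87 and 4.41. Upstream of Meg3 the sites differed by time. The region chr12:109525763-109526174 was covered in the last 4 lists (folds 4.29, 7.25, 6.81 and 2.53), and chr12:109527533-109528483 at days 2 and 6 alone. The germline-methylated control region of the cluster lies upstream of Meg3, and its limits are not in the tables used here.

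The protein-coding genes of this cluster had most of their peaks in the early lists. Dlk1 had no covered end, and 3, 4, 3, 1, 1, 0, 0 and 0 peaks lay within 20 kb from day 0 to iPSC. A site upstream of it, chr12:109444896-109446273, was covered at days 0, 2, 4 and 6 (folds 3.85, 4.29, 3.43 and 4.05) and in no later list. The same held for chr12:109598630-109599246 inside the Rtl1 span (folds 3.58, 4.47, 5.08 and 4.08). Dio3 was covered at its start at day 2 (fold 3.12) and in iPSC (fold 4.13), and at day 8 depth in iPSC alone. Near Dio3, chr12:110298289-110299389 was covered at days 2, 4 and 6 (folds 10.2, 6.14 and 7.31). Within 20 kb of the 4 genes lay 6, 16, 7, 6, 3, 2, 3 and 4 peaks, and at day 8 depth 4, 9, 6, 3, 3, 2, 3 and 3.

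**Figure D4:**
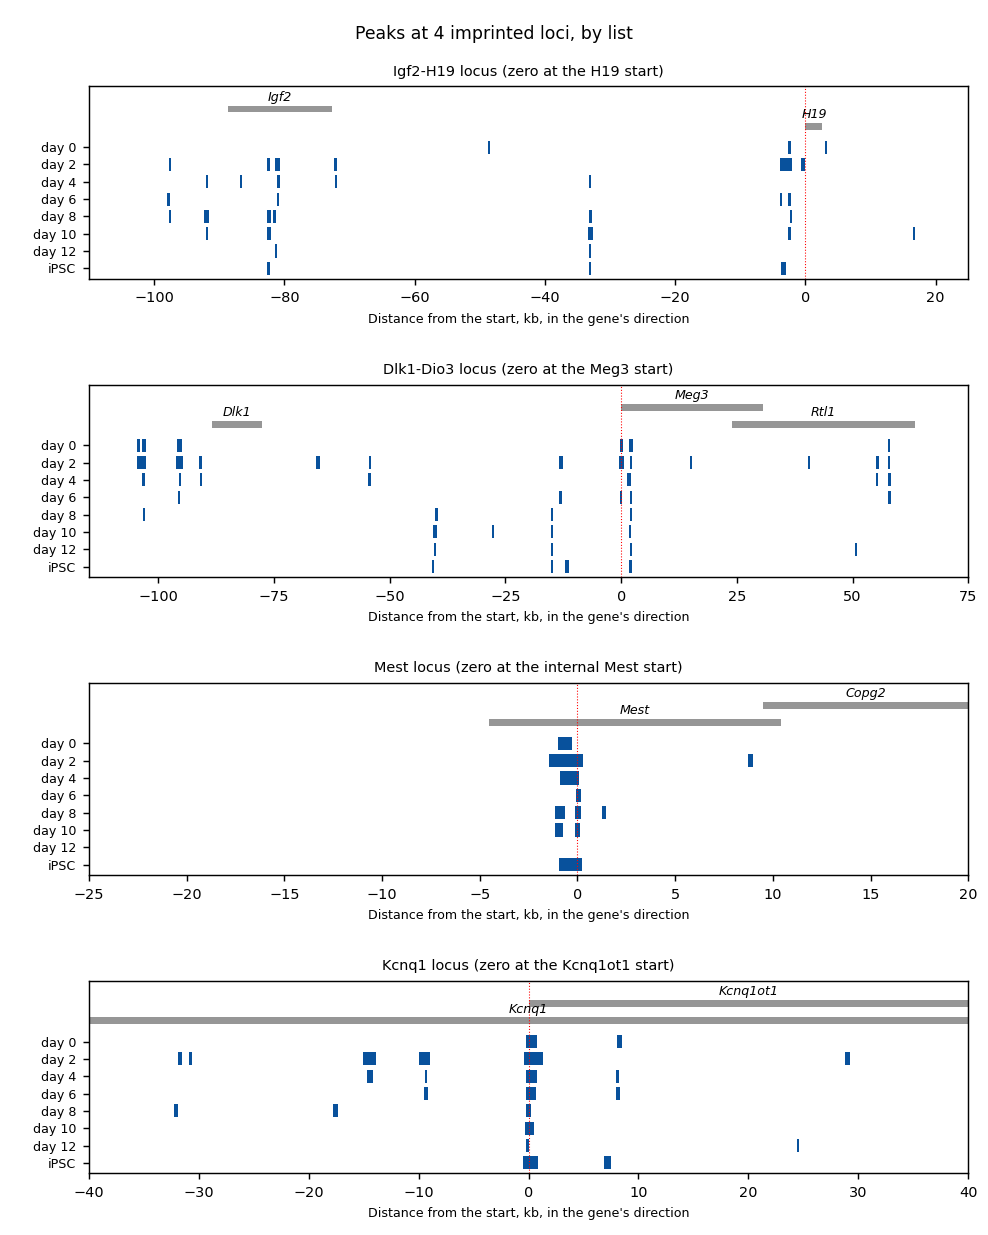
Peaks (blue) in the 8 lists (rows) along 4 loci, with gene spans in grey. The x axes give the distance in kb from the start named in each panel, in the direction of that gene. At Meg3 the site 2 kb inside the gene is filled in all 8 rows and the start in days 0, 2 and 6, while the Kcnq1ot1 start is filled in all 8 rows.

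The Prader-Willi/Angelman cluster on chromosome 7 was covered at the Snrpn and Ube3a starts in all lists and held no site that was covered at 2 or more of days 0 to 6 and in no later list. The internal Snrpn start, the imprinting centre of the cluster, lay in chr7:60002982-60005233, which was covered in all 8 lists. The highest-fold peak within 1 kb of the start had folds of 6.09, 8.45, 6.66, 4.49, 5.14, 4.44, 4.66 and 6.19. Their summits lay 91 bp inside the gene at day 0 and 642 to 1165 bp inside in the other lists. Neither end of the annotated 467.7 kb span was covered in any list. In iPSC this peak was 1983 bp wide with a pileup of 81. Ube3a, the maternally expressed ubiquitin ligase of Angelman syndrome, was covered at its start in all 8 lists (folds 6.84 to 10.6). Ndn, a neuronal growth suppressor, was covered at days 0 to 8 and in iPSC with summits 3 to 49 bp after the start. Magel2, a regulator of protein recycling, was covered in 4 lists (days 0, 2 and 4, iPSC, folds 5.57, 5.27, 6.45 and 4.43). Mkrn3, a ring finger gene tied to the timing of puberty, was covered in every list but day 0, and at day 8 depth from day 8 on alone. Of the 15 regions of the cluster, 0 were in the day 0 list but not the iPSC list, 4 the reverse and 5 in both (over all regions near protein-coding genes 18.9%, 19.6% and 13.3%).

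Trappc9, a vesicle transport gene on chromosome 15, had the best-scored peak of all regions near imprinted genes. Its high-coordinate end, chr15:73060309-73061676, had folds of 9.86, 11.2, 11.4, 12.2, 15.9, 11.5, 8.90 and 10.3. It ranked within the best-scored 0.181% of the day 2 list and within the best 0.735% of the day 0 list. The region chr15:72808346-72810983, at an end of the imprinted Peg13 inside Trappc9, was also covered in all 8 lists (folds 4.73 to 6.87). A site beyond the high-coordinate end, chr15:73067384-73068202, was covered in all 8 lists as well (folds 9.40 to 10.6). Kcnk9, a potassium channel gene, was covered at days 2 and 6 (folds 6.62 and 4.38). Inside Trappc9 3 sites were covered at days 0, 2, 4 and 6 and in no later list, among them chr15:72836746-72837946 (folds 8.56, 8.31, 5.86 and 9.06).

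The single loci also divided by where their peaks lay. Plagl1, a zinc finger gene of fetal growth, was covered at its CG-rich start in 7 lists, all but day 12, with folds of 4.55, 8.03, 5.13, 4.55, 7.92, 5.72 and 6.96. Impact, which encodes a regulator of translation, was covered at an end in all 8 lists (folds 5.77 to 13.1). Its germline-methylated region is known to lie inside the gene, where chr18:12972801-12974552 was also covered in all 8 lists (folds 6.16 to 8.35). Before the gene lay chr18:12946833-12948496, covered in all 8 lists (folds 4.12 to 13.7). Grb10, an adaptor that restrains growth signalling, was covered at an end in 4 lists, days 2, 6, 8 and iPSC. Inside Grb10, chr11:12025379-12026700 was covered in 7 lists (folds 3.51, 5.58, 6.64, 3.02, 9.58, 6.03 and 8.55). At Gnas, the gene of the stimulatory G protein with several imprinted promoters, the end was covered in 3 lists, days 2, 4 and iPSC, none of which kept it at day 8 depth. Its internal start by chr2:174329027-174330035 was covered in all 8 lists (folds 2.93 to 7.40), and the one by chr2:174327159-174328132 at days 0 to 6 and in iPSC. The end of Gnasas1, the antisense RNA inside Gnas, lay by chr2:174294696-174296283, covered in every list but day 4 (folds 4.58 to 12.2).

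Among the other single loci, Commd1, a copper and NF-kappaB regulator, had no covered end but 2 internal starts covered in all 8 lists. One lies by chr11:22981466-22982722 (folds 5.89 to 12.3). The other, chr11:22971732-22973043 (folds 4.60 to 10.6), is also the promoter of the paternally expressed Zrsr1. Rasgrf1, an exchange factor gene of neurons, was covered at an end in every list but day 0. An upstream site, chr9:89902260-89903218, was covered at days 2 to 12 (folds 7.61, 7.96, 8.52, 5.25, 6.66 and 7.32) and at neither end point. Dcn, the gene of the matrix protein decorin and typical of fibroblasts, was covered at its low-coordinate end at days 0, 2, 4, 6 and 10 (folds 4.97, 4.32, 4.12, 3.85 and 4.60). In iPSC the nearest peak lay 109605 bp from Dcn. A site by Dcn, chr10:97536830-97537915, was covered at days 0 to 6 (folds 4.06, 10.2, 6.63 and 8.53) and in no later list. Nnat, a neuronal gene inside a Blcap intron, was covered at day 2 alone (fold 3.70) and in none at day 8 depth. The nearby Blcap promoter region, chr2:157565673-157567744, was covered in all 8 lists (folds 5.32 to 8.79).

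Over all clusters, regions around imprinted genes were classed by the lists that covered them. The 8 lists merged into 417 regions within 20 kb of an imprinted gene. Both end points covered 41 (9.83%, against 13.3% of the 114837 regions near any protein-coding gene). Day 0 and not iPSC covered 74 (17.7%, against 18.9%), iPSC and not day 0 covered 82 (19.7%, against 19.6%), and 220 were covered in intermediate lists alone (52.8%, against 48.2%). All 8 lists covered 23 (5.52%, against 7.51%), and 6 or more lists 40 (9.59%, against 12.9%). All of days 0 to 6 and no later list covered 14 regions in 6 of the groups (3.36%, against 2.82%), and 0 of those lay at an end of an imprinted gene. At least 2 of days 0 to 6 and no later list covered 83 (19.9%, against 18.6%). At least 2 of days 8, 10, 12 and iPSC and none of days 0 to 6 covered 37 (8.87%, against 7.46%), and the Peg10 cluster held 14 of those 37. Peaks per 100 kb ran from 1.94 at day 12 to 4.89 at day 2 around imprinted genes, and from 2.01 to 4.64 around all protein-coding genes. At the end points they were 2.88 and 2.84 around imprinted genes, against 3.08 and 3.20.

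Genes with a promoter in a germline-methylated region compared with the other imprinted genes in a way that depended on the measure. For this, 13 genes were taken to have a promoter in or at such a region. They are Airn, Kcnq1ot1, Peg3, Usp29, Peg10, Sgce, Mest, Snrpn, Plagl1, Grb10, Nnat, Gnas and Impact. On gene ends alone, 7, 11, 7, 9, 5, 6, 4 and 10 of them were covered from day 0 to iPSC, and 12, 18, 13, 13, 13, 13, 10 and 15 of the other 27 genes. By that measure their share was below that of the others at day 8 (38.5% against 48.1%), day 10 (46.2% against 48.1%) and day 12 (30.8% against 37.0%). With annotated starts included, 10, 13, 9, 12, 8, 9, 6 and 12 of the 13 were covered, and 14, 19, 15, 16, 15, 16, 12 and 17 of the 27. In 7 or 8 lists these were 7 of 13 (53.8%) and 10 of 27 (37.0%), against 49.6% of all protein-coding genes, and at day 12 depth 1 and 4. The groups differ in more than methylation, since more internal starts are annotated in the former, and the difference was not tested. Among the 13, Peg3 and Usp29 share a region, as do Peg10 and Sgce, so their counts are not independent. A covered end or start also need not be the germline-methylated promoter. At Impact that region is known to lie inside the gene, while the counted peak lies at an end. The counts therefore describe the genes and not those promoters. By expressed allele as generally known, and not measured here, an end was covered at 10, 13, 8, 11, 11, 11, 8 and 11 of 20 maternally expressed genes. Of 19 paternally expressed genes it was covered at 9, 15, 11, 11, 7, 8, 6 and 13. At day 8 depth the counts were 8, 10, 7, 7, 11, 11, 8 and 9 of the 20. They were 9, 9, 10, 8, 7, 8, 6 and 13 of the 19. Shares of all protein-coding genes were 55.0%, 62.2%, 51.6%, 54.5%, 55.2%, 56.4%, 44.3% and 58.6% as deposited. At day 8 depth the shares were 49.3%, 56.9%, 48.6%, 46.7%, 55.2%, 55.6%, 44.3% and 53.4%. A difference by allele was not tested.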

How the data were processed

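Peaks of open chromatin came from 16 ATAC-seq libraries of 100000 cells each, 2 per stage, with 15 PCR cycles and 150 bp reads. Per the submitters' processing notes, MACS2 2.1.2 was used with Bowtie2 2.2.5, fastp 0.20.1, deepTools 3.4.3 and SAMtools, and the build was mm10. The sources used here do not say how the libraries of a stage were joined into 1 list. Each deposited list gives a peak's position and summit, a score (10 times the −log10 q), the fold enrichment of the summit pileup over the local background, the −log10 p and the −log10 q. These are the authors' values per the narrowPeak format of MACS2. The highest q in any list was 0.0500.

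Peaks on chromosomes 1 to 19, X and Y were used, and the 36 to 57 peaks per list that lay elsewhere were not. Summit pileup and background were recovered from the deposited fold and −log10 p for at least 99.9% of peaks within 0.001 of the −log10 p. For day 8 and day 12 depth both were multiplied by the ratio of the background pileups, the pileup was rounded down, and a peak was kept if its Poisson −log10 p still reached the lowest of its own list. At day 8 depth 31865 to 59478 peaks were kept per list. Lists were merged into regions where peaks shared at least 1 bp. Gene spans came from RefSeq for GRCm38.p6, whose table gives no strand or exons, so intron and exon positions are not given. Promoter sequences came from the RefSeq table of the same build.

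The imprinted genes, the other gene lists and the patterns were chosen with earlier results of these data known. Named with values were genes covered at 1 end point alone, in all lists or in none, those with the most peaks, and each cluster's best-scored and most shared regions. Regions covered in early or late lists alone were singled out after their values were seen. Python 3.11.15, numpy 2.4.6, pandas 2.3.3 and scipy 1.17.1 were used. The recovery of pileup and background was checked on simulated peaks with known values, and the merging and overlap of peaks on a small made-up set. The depth scaling, gene patterns and region classes were not checked in this way. With 1 list per stage no test was made. The files give no library totals, and the background pileup stands in for depth.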

Additional observations from a re-analysis of the deposited data

How the results depend on the processing

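Of 187 alternative values of 27 counts, 114 stayed within 1.5 times the deposited value and 73 did not. None moved with flanks of 5 or 50 kb, with a summit required in the window, with annotated starts added, or without the day 12 list. At day 8 depth, covered ends at day 2 went to 19, peaks near imprinted genes to 78 at day 0, 126 at day 2 and 65 at day 6, and regions of day 0 and not iPSC to 46. Genes covered at days 2 to 6 and not at days 8 to 12 went to 7, and genes without a germline-methylated promoter covered in 7 or 8 lists to 6. At day 12 depth, covered ends were 7, 11, 8 and 6 at days 0 to 6 and 12 in iPSC. Peaks were 25, 49, 35, 21, 67 and 64 at days 0 to 10 and 40 in iPSC. Regions were 12 for day 0 and not iPSC, 27 for the reverse, 13 for both and 116 for intermediates alone. Genes were 0 for day 0 and not iPSC, 5 for the reverse, 4 in every list and 18 in none. They were 2 for days 2 to 6 and not days 8 to 12. In 7 or 8 lists there were 1 germline-methylated and 4 other genes.

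With the better-scored 50% of each list, covered ends were 8, 14, 12, 11, 11 and 12 at days 0 to 10. Peaks were 47, 83, 54, 47, 56, 51, 33 and 62, and regions were 27, 42, 20 and 88 in the same order of classes. Genes were 0 for day 0 and not iPSC, 4 for days 2 to 6 and not days 8 to 12, and 17 in no list. In 7 or 8 lists there were 3 germline-methylated and 5 other genes. With lists of equal length, covered ends were 12 at days 2 and 6. Peaks were 68, 56, 53 and 77 at days 0, 2 and 6 and in iPSC, and regions 39, 48 and 137 for day 0 and not iPSC, the reverse and intermediates alone. Genes were 1 for day 0 and not iPSC, 5 for days 2 to 6 and not days 8 to 12, and 14 in none. In 7 or 8 lists there were 4 germline-methylated and 5 other genes. Counting the start end alone was possible for the 30 genes with an annotated start, and gave 12 at day 10 and 8 at day 12. The rest of the 40 genes were left out of that count, so its base differs from that of the deposited 19 and 14. Without the day 2 list, 7 genes were covered at days 4 or 6 and not at days 8 to 12. Within 2.5 kb, 5 genes were covered in iPSC and not at day 0, 14 in every list and 2 in none. Why counts moved was not tested beyond depth, list length and window, which the alternatives change by construction. Alternatives on the gene patterns (the 2.5 kb window for them included), the germline-methylated genes and annotated starts were chosen after seeing the data. No paired analysis was possible because there is 1 list per stage and none per library, and for the same reason no library could be left out. The shallow day 12 list limits what its uncovered ends can show.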

Other observations

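Other imprinted genes outside the 40 were counted in the same way. Of 46 named, 44 were in the RefSeq table. An end was covered at 24, 26, 21, 22, 24, 23, 19 and 31 of them from day 0 to iPSC. Their highest share was in iPSC (70.5%, against 58.6% of all protein-coding genes), and day 2 had 59.1% (against 62.2%). All 8 lists covered 12 of the 44 (against 36.9%), namely H13, Mcts2, Blcap, Pon2, Peg12, Inpp5f, Cd81, Tssc4, Nap1l4, Dhcr7, Zrsr1 and Peg13. Zrsr1 and Peg13 share their regions with Commd1 and Trappc9 above.

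Among 8 genes that maintain imprints, an end was covered at 5, 4, 4, 3, 5, 4, 6 and 4 in the same order. Trim28, which recruits silencing complexes, Ctcf, the insulator protein gene, and Uhrf1, a partner of maintenance methylation, were covered in all 8 lists. Zfp445, an imprint-binding zinc finger gene, was covered in 7. Zfp57, the other such factor, was covered in no list. Dnmt1, the maintenance methyltransferase gene, was covered at day 0 alone, Dppa3, a protector of methylation in the egg, at day 12 alone, and Setdb1, a histone methyltransferase gene, at days 8 and 12. Internal starts were not counted for these genes.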
